A study of Homo sapiens with 6 samples.

Results

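Expression of the DNA replication machinery was measured by RNA-seq in HCT116 cells, a human colorectal carcinoma line, after overexpression of the RNA-binding protein RBM47. The members were the protein-coding genes of the count table whose symbols match a list of replication factors: ORC1 to ORC6, CDC6, CDT1, GMNN, MCM2 to MCM10, CDC7, DBF4, CDC45, GINS1 to GINS4, TOPBP1, TICRR, POLA1, POLA2, PRIM1, PRIM2, POLD1 to POLD4, POLE, POLE2 to POLE4, PCNA, RFC1 to RFC5, RPA1 to RPA3, LIG1, FEN1, TIMELESS, TIPIN, CLSPN and WDHD1. The rule used symbols only and no measured value. It found 54 of the 28491 genes in the table, and all 54 were among the 16260 genes that passed the filter on low counts. Poly(A) RNA was taken 48 h after transient transfection with Lipofectamine 2000, in 3 libraries from cells given a control plasmid (NC) and 3 from cells given an RBM47 plasmid (RBM47-OE). For the vector the labels give pcDNA3.1-3xFlag and the methods pIRES-hrGFP-1a, for the medium DMEM and McCoy's 5A, and for the library kit NEBNext directional and KC stranded, respectively. HCT116 is a single, cycling line, the share of cells that took up plasmid is not given in the sources used here, and no label says that the 3 libraries of a group came from separate cultures, so p-values measure only the spread between these libraries. In bulk RNA, fewer cells in S phase and less RNA per cell cannot be told apart.

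Replication starts at origins that are marked by the origin recognition complex (ORC), onto which CDC6 and CDT1 load the MCM2-7 helicase in G1. Kinases and assembly factors then add CDC45 and the GINS complex, the helicase opens the DNA, polymerase alpha-primase lays down primers, and polymerases epsilon and delta copy the leading and lagging strands on the sliding clamp PCNA, which the RFC complex loads. RPA coats single-stranded DNA, FEN1 and LIG1 finish the lagging strand, and a fork protection complex keeps helicase and polymerases together. Many of these genes are known targets of E2F transcription factors at the G1/S transition.

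Promoter sequence was compared between the members and other genes. RefSeq promoter entries (build GRCh38.p14, from 250 bases before to 50 after the gene's start) matched 48 of the 54 members. MCM4, MCM5, GINS4, POLD3, RPA2 and RPA3 had no entry. The 4 words TTTCCCGC, TTTCGCGC, TTTGCCGC and TTTGGCGC, the strict form of the E2F site, were searched on both strands. At least 1 of them was found in 21 of the 48 promoters (43.8%), against 5.34% of the 11105 promoters of tested genes and 3.33% of all 27305 promoters of that length. Members with a word included genes that later proved higher, lower and not called in RBM47-OE, and the following windows of 30 bases were chosen to show each of these. They are written 5′ to 3′ on the strand of the gene, and capitals mark the word or, where the word lies on the other strand, its reverse complement. TTTCGCGC and its reverse complement overlap in MCM2, so that 2 words share bases there.
MCM2 (chr3:127598402-127598431, plus strand): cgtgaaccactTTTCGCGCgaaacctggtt
MCM7 (chr7:100101388-100101417, minus strand): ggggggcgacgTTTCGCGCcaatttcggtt
PCNA (chr20:5126663-5126692, minus strand): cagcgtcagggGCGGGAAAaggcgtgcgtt
CDC6 (chr17:40287875-40287904, plus strand): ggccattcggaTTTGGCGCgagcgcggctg
TOPBP1 (chr3:133661930-133661959, minus strand): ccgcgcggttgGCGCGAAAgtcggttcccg
ORC3 (chr6:87590112-87590141, plus strand): cgcgagggcgcGCGGGAAAtcccgagtgca
MCM8 (chr20:5950667-5950696, plus strand): ggatcactgaaGCGCCAAAaaagaatttag
A match is a description of these letters and not of binding. By the calls given below, 4 of 13 higher members with an entry held a word, as did 9 of 17 lower members and 8 of 18 members that were not called. TTTGCCGC was in 0 of the members' promoters. Words were thus present on both sides of the comparison.

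The libraries held between 26792409 and 35477983 counts on genes. RBM47 itself had an FPKM (fragments on a gene relative to its length and to the fragments mapped in the library) of 1.91, 2.33 and 1.94 for NC and of 131.3, 130.41 and 127.04 for RBM47-OE, here and below in the order of replicates 1, 2 and 3. Its log2 fold change was 5.90 (SE 0.096, adjusted p = 1.7e-25), so the targeted gene followed the labels in every library. Counts on RBM47 include the transcript of the plasmid. The 9 epithelial markers had a summed FPKM of 1975 to 2151 in NC and 1831 to 2073 in RBM47-OE, but VIL1, a marker of the intestinal brush border, was at an FPKM of 0.09 or less in every library. The 3 fibroblast markers in the table summed to at most 1.78, the 5 leukocyte markers to at most 0.66 and the 4 endothelial markers to at most 0.20. The fibroblast markers COL1A2, DCN and LUM and the leukocyte marker PTPRC were not in the count table, so no level is given for them. The RBM47-OE libraries also differed from the NC libraries in how gene levels followed GC content, so values are given as fitted and, where the call or value changed, after each library's trend with exonic GC content was removed as an offset (the GC offset). Such an offset also takes away any true change that runs parallel to GC content.

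Without the GC offset, the setting of all values in this paragraph, the replication machinery did not move as a block. Of the 54 members, 14 rose and 19 fell in RBM47-OE at an adjusted p under 0.05 in edgeR's quasi-likelihood test, and 21 were not called. Of all genes tested, 19.1% were higher and 16.9% were lower, and 35.9% were called in either direction, against 61.1% of the members. Among the 9491 tested genes within the members' range of mean log2 CPM, 27.5% were higher and 24.7% were lower, and 52.1% were called. The changes were small. Log2 fold changes ran from -0.41 for MCM2 to 0.54 for WDHD1, with a median of -0.06 over the members and 0.00 over all genes tested. No member met the study's thresholds, an unadjusted p under 0.01 and a fold change over 1.5, which 1.51% of all genes met as higher and 0.873% as lower. The groups did not overlap for 39 members, 17 of them with RBM47-OE on top and 22 with NC on top, where the shares over all genes were 23.2% and 23.4%.

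**Figure D1:**
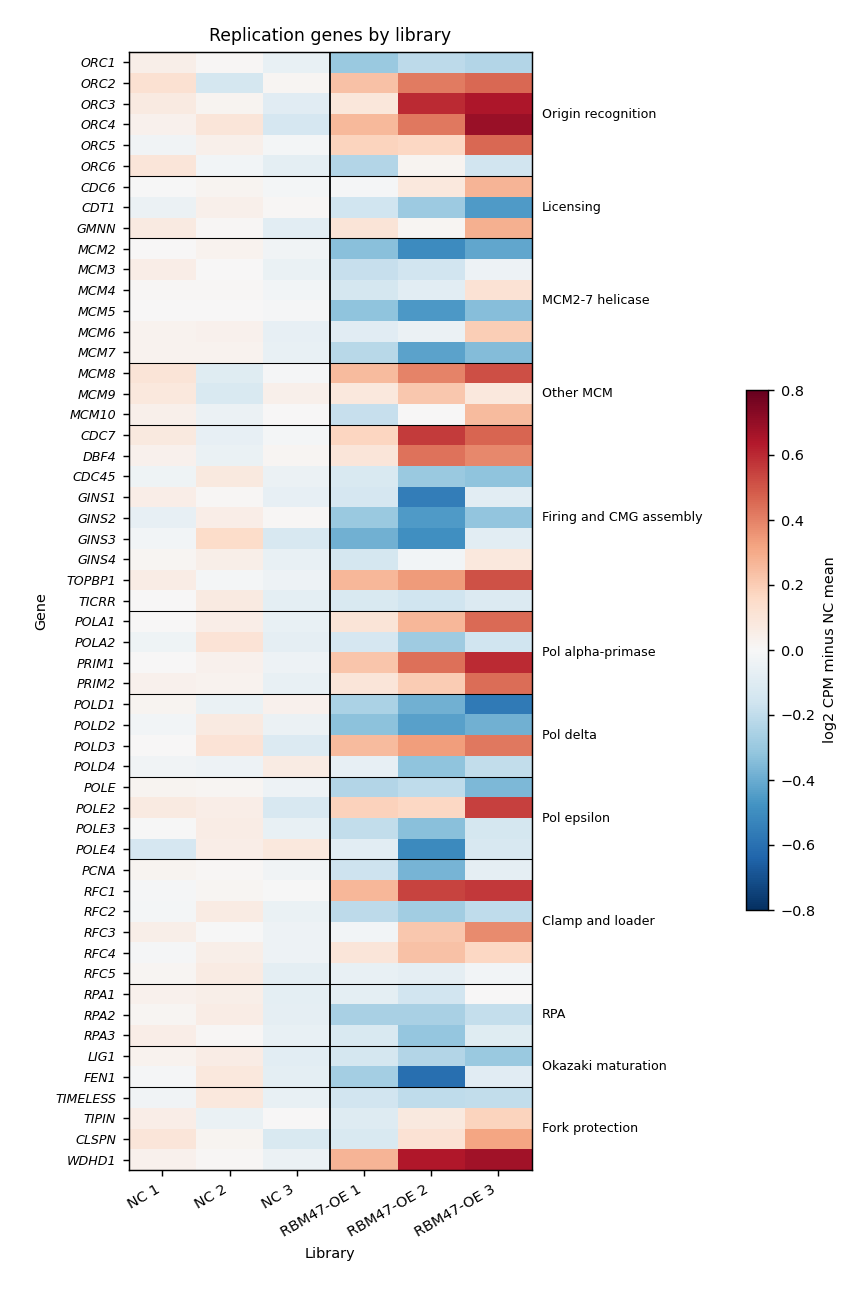
Heat map of the 54 replication genes (rows, ordered by role) in the 6 libraries (columns). Colour gives log2 CPM minus the mean of the 3 NC libraries, red higher and blue lower, on a scale from -0.8 to 0.8. Red and blue rows occur within the same role, and the colours of RBM47-OE replicate 1 are paler than those of replicates 2 and 3 for most red rows.

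Without the GC offset, both directions occurred within ORC, the firing factors, polymerase delta, the clamp and its loader, and the fork protection genes. Higher members were ORC2, ORC3, ORC4, ORC5, MCM8, CDC7, DBF4, TOPBP1, POLA1, PRIM1, PRIM2, POLD3, RFC1 and WDHD1. Lower members were ORC1, CDT1, MCM2, MCM5, MCM7, CDC45, GINS1, GINS2, GINS3, POLD1, POLD2, POLE, POLE3, PCNA, RFC2, RPA2, LIG1, FEN1 and TIMELESS. The lower members were the more abundant ones, with a median NC FPKM of 26.7 against 4.98 for the higher members and 9.02 for those not called. Summed FPKM of all 54 members was 1128, 1152 and 1092 for NC and 1034, 1029 and 1105 for RBM47-OE. The groups overlapped, with means of 1124 ± 29.99 and 1056 ± 42.5 (SD, n = 3), and an exact two-sided permutation test gave p = 0.20, where 3 libraries against 3 cannot go below 0.10. As a share of all counts, the members took 0.488% ± 0.012 for NC and 0.463% ± 0.015 for RBM47-OE (SD, n = 3, exact permutation p = 0.20).

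The counts of calls changed when single libraries were left out. Such fits have fewer libraries, so lower power and the weight of the library left out cannot be told apart. In RBM47-OE replicates 1, 2 and 3, the median log2 difference from NC was 0.23, 0.42 and 0.49 over the 14 higher members and -0.24, -0.37 and -0.30 over the 19 lower members. Replicate 1 thus lay nearest to NC over the called members, but over all 54 members the medians were -0.12, -0.08 and -0.01, with replicate 3 nearest to NC. Without RBM47-OE replicate 1, 19 members were higher and 22 lower, and 32 of the 33 calls remained. The count of lower members dropped to 10 without NC replicate 1, to 8 without NC replicate 2 and to 12 without RBM47-OE replicate 2, while the count of higher members stayed between 10 and 19. Of the 33 called members, 17 passed the threshold with every library left out in turn and 16 did not. The number of calls lost was 12, 14 and 8 when NC replicate 1, 2 or 3 was left out, and 1, 8 and 6 for the RBM47-OE replicates. The scaling mattered too, since scaling to library totals instead of TMM gave 17 higher and 10 lower members, and the GC offset gave 2 higher and 13 lower.

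**Figure D2:**
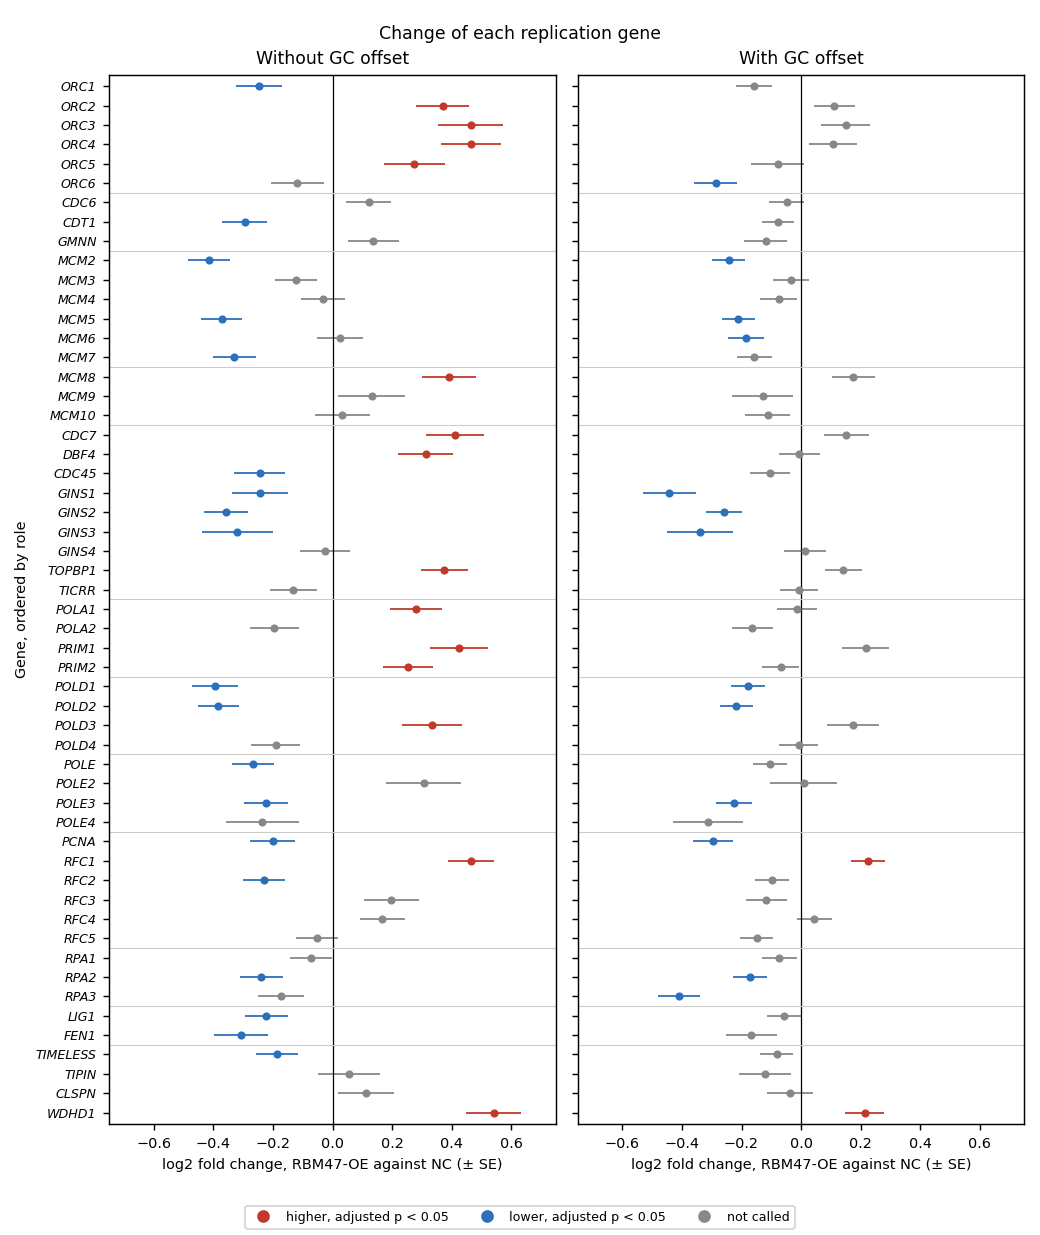
Log2 fold change of each replication gene, RBM47-OE against NC, with bars of ± 1 SE, without (left) and with (right) the GC offset. Red and blue points passed an adjusted p under 0.05, 14 higher and 19 lower on the left, and 2 higher and 13 lower on the right.

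Of the 6 ORC genes, ORC2 to ORC5 were higher and ORC1 was lower. ORC4 (chr2:147930396-148021604, minus strand), a core subunit of the complex that binds origins, had a CPM (counts relative to the TMM-scaled library total) of 25.7, 26.7 and 22.8 for NC and 29.97, 33.5 and 40.4 for RBM47-OE. The groups did not overlap, and RBM47-OE replicate 3 was the highest. ORC4 rose (log2 fold change 0.46, SE 0.10, adjusted p = 0.00098), but with the GC offset the ORC4 value was 0.11 (adjusted p = 0.42). The other core subunits were ORC2 (0.37, adjusted p = 0.0022), ORC3 (0.46, adjusted p = 0.0018) and ORC5 (0.27, adjusted p = 0.039). ORC1 is the ATPase subunit whose level is known to vary over the cell cycle, and its CPM of 51.3, 50.01 and 47.7 for NC and 40.4, 42.9 and 42.3 for RBM47-OE gave a log2 fold change of -0.25 (adjusted p = 0.013). None of these 5 calls held with the GC offset, which gave -0.16, 0.11, 0.15, 0.11 and -0.08 for ORC1 to ORC5 (adjusted p from 0.092 to 0.62). ORC6, the subunit least tightly bound to the rest, was -0.12 without the offset (adjusted p = 0.32) and was called lower with it (-0.29, adjusted p = 0.010). ORC1 lost its call without NC replicates 1 or 2 (adjusted p = 0.082 or 0.071). ORC5 lost its call without NC replicates 1, 2 or 3 (adjusted p = 0.12, 0.086 or 0.11) or RBM47-OE replicate 3 (adjusted p = 0.22).

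Among the 3 licensing factors, 1 was called. CDT1 (chr16:88803789-88809258, plus strand) brings the MCM helicase to origins and is destroyed once S phase begins. Its CPM was 153, 162 and 159 for NC and 142, 129 and 115 for RBM47-OE, so that every RBM47-OE library lay below every NC library. CDT1 fell by 0.30 on the log2 scale (SE 0.076, adjusted p = 0.0037), although with the GC offset the CDT1 value was -0.08 (adjusted p = 0.38). The loader CDC6 (0.12, adjusted p = 0.22) and the CDT1 inhibitor geminin, GMNN (0.14, adjusted p = 0.22), were not called.

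In the MCM2-7 helicase, MCM2, MCM5 and MCM7 were lower, and MCM3, MCM4 and MCM6 were not called. MCM2 (chr3:127598410-127622436, plus strand) had a CPM of 301, 305 and 294 for NC and 238, 212 and 225 for RBM47-OE. All 3 RBM47-OE values were lower than any NC value, and the gap between the groups exceeded the range within either. MCM2 fell by 0.41 on the log2 scale (SE 0.070, adjusted p = 0.00013), and the call held with the GC offset (-0.24, adjusted p = 0.0055). An antisense lncRNA covers 23.6% of the exonic bases of MCM2, and its own counts were 3.10% of those of MCM2. MCM5 (chr22:35400134-35425431, plus strand), the neighbour of MCM2 at the gate of the helicase ring, had a CPM of 226, 226 and 224 for NC and 180.0, 164 and 178 for RBM47-OE. Here too the groups were separate, and the NC libraries were close to each other. MCM5 fell by 0.37 (log2 scale, SE 0.069, adjusted p = 0.00028) and stayed called with the GC offset (-0.21, adjusted p = 0.014). MCM7 (chr7:100092233-100101940, minus strand) was the most abundant subunit per length, with a mean FPKM of 125 ± 4.16 for NC and 104 ± 5.26 for RBM47-OE (SD, n = 3). Its CPM was 649, 649 and 611 for NC and 546, 473 and 499 for RBM47-OE. RBM47-OE replicate 1 was nearest to the NC libraries without reaching them. MCM7 fell by 0.33 (log2 scale, SE 0.074, adjusted p = 0.0013), but with the GC offset the MCM7 value was -0.16 (adjusted p = 0.081). The other subunits were at -0.12 for MCM3 (adjusted p = 0.18), -0.03 for MCM4 (adjusted p = 0.77) and 0.03 for MCM6 (adjusted p = 0.83). MCM6 was called lower with the GC offset (-0.19, adjusted p = 0.042).

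The other MCM proteins are not part of the ring. MCM8 (chr20:5950652-5998977, plus strand) forms a helicase with MCM9 that acts in homologous recombination. Its CPM was 27.2, 23.7 and 25.2 for NC and 30.2, 33.3 and 36.3 for RBM47-OE, and all RBM47-OE libraries were above the NC libraries. MCM8 rose (log2 fold change 0.39, SE 0.091, adjusted p = 0.0017), whereas with the GC offset the MCM8 value was 0.17 (adjusted p = 0.11). A protein-coding gene on the same strand, RP5-967N21.13, shares 33.3% of the exonic bases of MCM8, so how reads were split between these genes makes the MCM8 value uncertain. MCM9 was the least abundant member per length, with a mean FPKM of 0.713 ± 0.0473 for NC and 0.820 ± 0.0608 for RBM47-OE (SD, n = 3), and was not called (0.13, adjusted p = 0.40). MCM10, which helps to activate the loaded helicase, was at 0.03 (adjusted p = 0.81).

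Origin firing drew genes in both directions. The kinase CDC7 and its activator DBF4, which phosphorylate the MCM ring, were higher together with the scaffold TOPBP1, while CDC45 and 3 of the 4 GINS genes, which join the ring to form the active helicase, were lower. TOPBP1 (chr3:133598175-133662380, minus strand) had a CPM of 46.2, 43.9 and 43.0 for NC and 53.4, 56.1 and 63.1 for RBM47-OE. The lowest RBM47-OE library lay above the highest NC library. TOPBP1 rose (log2 fold change 0.38, SE 0.079, adjusted p = 0.00082), but with the GC offset the TOPBP1 value was 0.14 (adjusted p = 0.13). GINS2 (chr16:85676198-85690073, minus strand) was the most abundant GINS subunit per length, with a mean FPKM of 19.6 ± 0.914 for NC and 16.1 ± 0.608 for RBM47-OE (SD, n = 3). Its CPM was 70.0, 76.2 and 73.9 for NC and 59.7, 53.5 and 58.8 for RBM47-OE. No RBM47-OE library reached an NC library. GINS2 fell by 0.36 on the log2 scale (SE 0.074, adjusted p = 0.00072), also with the GC offset (-0.26, adjusted p = 0.0060).

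CDC7 (0.41, adjusted p = 0.0021) and DBF4 (0.31, adjusted p = 0.0096) were higher without the offset and at 0.15 and -0.01 with it (adjusted p = 0.19 and 0.96). CDC45 (-0.25, adjusted p = 0.025) was lower without the offset and at -0.10 with it (adjusted p = 0.33). GINS1 (-0.24, adjusted p = 0.042) and GINS3 (-0.32, adjusted p = 0.038) were lower in both fits, at -0.44 and -0.34 with the offset (adjusted p = 0.0023 and 0.042). GINS1 had a CPM of 62.3, 60.5 and 57.3 for NC and 54.7, 40.8 and 56.6 for RBM47-OE, with RBM47-OE replicate 2 far below all other libraries. GINS3 was the only called member whose groups overlapped. GINS4 (-0.02, adjusted p = 0.85), whose exons overlap an antisense lncRNA over 21.0% of their bases, and the TOPBP1 partner TICRR (-0.13, adjusted p = 0.20) were not called. DBF4 was not called without NC replicate 2 (adjusted p = 0.064) or RBM47-OE replicate 2 (adjusted p = 0.073). CDC45 was not called without NC replicates 1, 2 or 3 (adjusted p = 0.058, 0.16 or 0.057) or RBM47-OE replicates 2 or 3 (adjusted p = 0.088 or 0.079). GINS1 missed the threshold without NC replicates 1, 2 or 3 (adjusted p = 0.14, 0.12 or 0.062) or RBM47-OE replicate 2 (adjusted p = 0.33), and GINS3 did so without NC replicates 1 or 2 (adjusted p = 0.074 or 0.22) or RBM47-OE replicates 1 or 2 (adjusted p = 0.080 or 0.18).

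**Figure D3:**
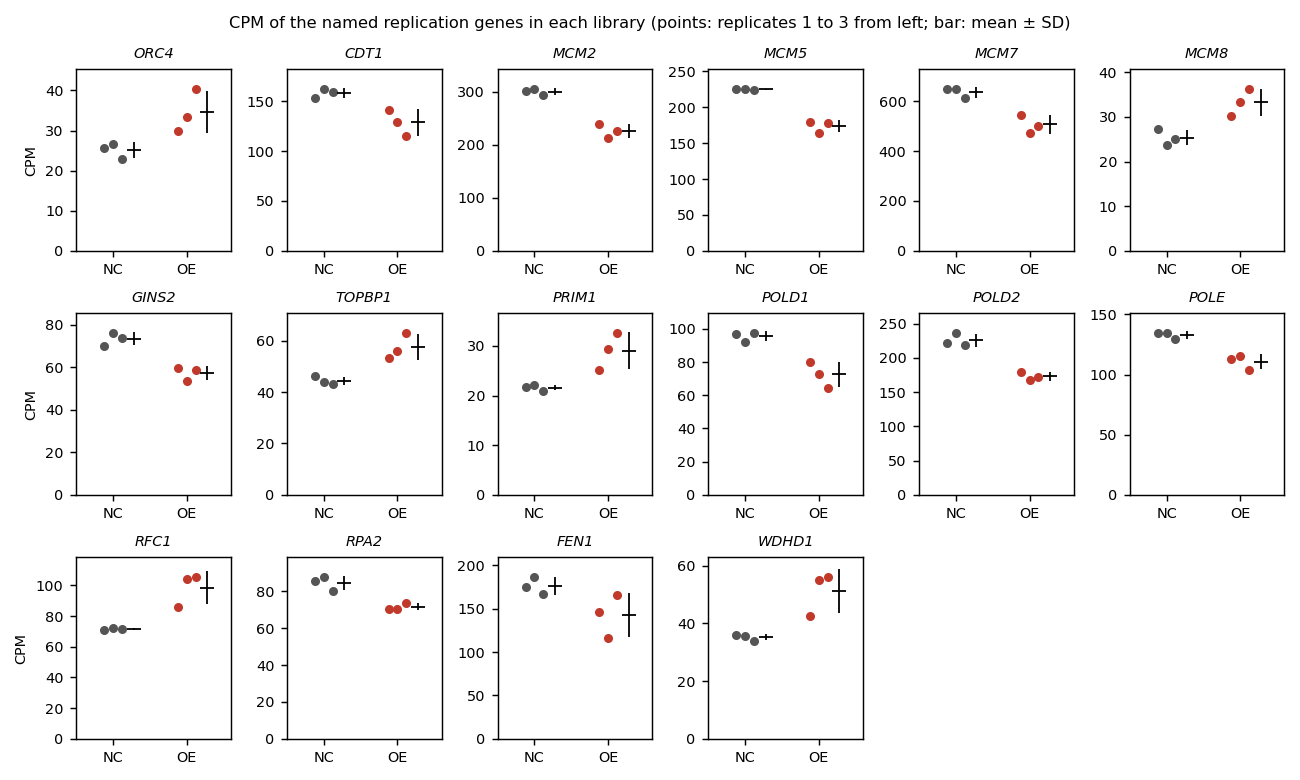
CPM of 16 named replication genes in each library, with axes from 0. Points are replicates 1 to 3 from left to right, grey for NC and red for RBM47-OE (OE), and the bar beside them is the mean ± SD (n = 3). In each panel the red points lie all above or all below the grey points, with FEN1 replicate 3 of RBM47-OE closest to NC.

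Polymerase alpha-primase, which makes the RNA-DNA primers, had 3 of its 4 genes higher. PRIM1 (chr12:56730438-56752374, minus strand), the catalytic primase subunit, had a CPM of 21.7, 22.2 and 21.0 for NC and 25.2, 29.3 and 32.7 for RBM47-OE. The NC values were close together, and those of RBM47-OE were all higher. PRIM1 rose (log2 fold change 0.42, SE 0.097, adjusted p = 0.0015), but with the GC offset the PRIM1 value was 0.22 (adjusted p = 0.063). A same-strand gene, RP11-112B10.2, shares 10.9% of the exonic bases of PRIM1. Another same-strand gene, NACA, shares 139 exonic bases with PRIM1. NACA had 69672 counts over all libraries, against 4659 for PRIM1. How reads were split between these genes makes the PRIM1 value uncertain. POLA1, the catalytic polymerase subunit (0.28, adjusted p = 0.014), and the large primase subunit PRIM2 (0.25, adjusted p = 0.020) were higher without the offset and at -0.01 and -0.07 with it (adjusted p = 0.91 and 0.53). POLA1 lost its call without NC replicates 1 or 3 (adjusted p = 0.050 or 0.083) or RBM47-OE replicate 3 (adjusted p = 0.10), and PRIM2 without NC replicates 1, 2 or 3 (adjusted p = 0.051, 0.060 or 0.11) or RBM47-OE replicate 3 (adjusted p = 0.16). The accessory subunit POLA2 was at -0.20 (adjusted p = 0.067), and it shares 16.8% of its exonic bases with the same-strand gene RP11-867O8.9, whose counts were 52.6% of those of POLA2.

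Polymerase delta split between its subunits. POLD1 (chr19:50384204-50418018, plus strand), the catalytic subunit, had a CPM of 97.0, 92.1 and 97.7 for NC and 80.1, 73.1 and 64.6 for RBM47-OE. The groups were apart, with RBM47-OE replicate 3 lowest. POLD1 fell by 0.40 on the log2 scale (SE 0.078, adjusted p = 0.00044), also with the GC offset (-0.18, adjusted p = 0.037). POLD2 (chr7:44114631-44124358, minus strand), the subunit that joins POLD1 to the others, had a CPM of 222, 237 and 218 for NC and 179, 167 and 172 for RBM47-OE. Again every RBM47-OE library was below every NC library. POLD2 fell by 0.38 on the log2 scale (SE 0.069, adjusted p = 0.00023), and with the GC offset its value was -0.22 (adjusted p = 0.010). POLD3, which carries a PCNA-binding motif, was higher (0.33, adjusted p = 0.011), but not with the GC offset (0.17, adjusted p = 0.19) or without NC replicate 3 (adjusted p = 0.086). POLD4 was not called (-0.19, adjusted p = 0.074).

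In polymerase epsilon, POLE and POLE3 were lower. POLE (chr12:132623753-132687376, minus strand), the catalytic subunit, had a CPM of 135, 135 and 129 for NC and 113, 115 and 103 for RBM47-OE, with no overlap and RBM47-OE replicate 3 lowest. POLE fell by 0.27 on the log2 scale (SE 0.070, adjusted p = 0.0045), but with the GC offset the POLE value was -0.10 (adjusted p = 0.23). POLE3, a small histone-fold subunit, was lower in both fits (-0.22, adjusted p = 0.019, and with the offset -0.23, adjusted p = 0.015), though not without NC replicates 1 or 2 (adjusted p = 0.069 or 0.13) or RBM47-OE replicate 2 (adjusted p = 0.10). Its partner POLE4 (-0.24, adjusted p = 0.14) and POLE2 (0.31, adjusted p = 0.057) were not called.

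The clamp and its loader also differed from each other. RFC1 (chr4:39287456-39366375, minus strand), the large subunit that opens the PCNA ring, had a CPM of 70.8, 72.1 and 71.4 for NC and 85.9, 104 and 106 for RBM47-OE. The NC libraries were within a narrow range, and all RBM47-OE libraries were above it, replicate 1 the least. RFC1 rose (log2 fold change 0.46, SE 0.078, adjusted p = 0.00013), and it was 1 of the 2 members still higher with the GC offset (0.23, adjusted p = 0.010). The small subunit RFC2 was lower (-0.23, adjusted p = 0.013), but not with the GC offset (-0.10, adjusted p = 0.27) or without NC replicate 2 (adjusted p = 0.12). RFC3 (0.20, adjusted p = 0.10), RFC4 (0.17, adjusted p = 0.087) and RFC5 (-0.05, adjusted p = 0.60) were not called. PCNA, the clamp itself, was the most abundant member per length, at a mean FPKM of 144 ± 2.32 for NC and 132 ± 11.9 for RBM47-OE (SD, n = 3). Its CPM was 238, 236 and 229.8 for NC and 209, 181 and 223 for RBM47-OE, where RBM47-OE replicate 3 came closest to NC. PCNA fell by 0.20 on the log2 scale (SE 0.076, adjusted p = 0.040), and with the GC offset its value was -0.30 (adjusted p = 0.0047). PCNA lost its call without NC replicates 1, 2 or 3 (adjusted p = 0.14, 0.14 or 0.091) or RBM47-OE replicate 2 (adjusted p = 0.21).

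Of the 3 RPA genes, RPA2 was lower. RPA2 (chr1:27891524-27914746, minus strand), the subunit phosphorylated under replication stress, had a CPM of 85.5, 88.0 and 80.4 for NC and 70.7, 70.6 and 74.0 for RBM47-OE. The RBM47-OE libraries were all lower and close to each other. RPA2 fell by 0.24 on the log2 scale (SE 0.071, adjusted p = 0.010), and with the GC offset its value was -0.17 (adjusted p = 0.045), but without NC replicate 1 or NC replicate 2 the adjusted p was 0.056 or 0.092. RPA3 (-0.17, adjusted p = 0.080) was called with the GC offset (-0.41, adjusted p = 0.00059), and the large subunit RPA1 (-0.07, adjusted p = 0.45) in neither fit.

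Both Okazaki fragment genes were lower. FEN1 (chr11:61792911-61797238, plus strand), the flap nuclease that trims the lagging strand, had a CPM of 175, 187 and 167 for NC and 146, 116 and 166 for RBM47-OE. RBM47-OE replicate 2 was far below the rest, and replicate 3 was just under the lowest NC library. FEN1 fell by 0.31 on the log2 scale (SE 0.091, adjusted p = 0.010), but the adjusted p was 0.098 without RBM47-OE replicate 2, 0.072 without NC replicate 2 and 0.21 with the GC offset (-0.17). LIG1, the ligase that seals the fragments (-0.22, adjusted p = 0.018), was at -0.06 with the offset (adjusted p = 0.55) and lost its call without NC replicates 1 or 2 (adjusted p = 0.088 or 0.12) or RBM47-OE replicate 3 (adjusted p = 0.067).

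Of the fork protection genes, WDHD1 had the largest log2 fold change of all 54 members without the offset. WDHD1 (chr14:54938949-55027105, minus strand), the homologue of yeast Ctf4 that links the helicase to polymerase alpha, had a CPM of 36.1, 35.5 and 34.0 for NC and 42.6, 55.0 and 56.2 for RBM47-OE. The NC libraries were within a narrow range, RBM47-OE replicate 1 was above them, and replicates 2 and 3 were higher still. WDHD1 rose (log2 fold change 0.54, SE 0.092, adjusted p = 0.00013), also with the GC offset (0.21, adjusted p = 0.032). TIMELESS, which couples helicase and polymerase, was lower (-0.19, adjusted p = 0.041), but not with the GC offset (-0.08, adjusted p = 0.37) and not without NC replicates 1, 2 or 3 (adjusted p = 0.099, 0.27 or 0.073) or RBM47-OE replicates 2 or 3 (adjusted p = 0.093 or 0.073). Its partner TIPIN (0.06, adjusted p = 0.72) and the checkpoint mediator CLSPN (0.11, adjusted p = 0.37) were not called.

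The direction of the members moved with their GC content. The median exonic GC content was 40.4% for the 14 higher members (37.0% to 43.7%), 53.4% for the 19 lower members (42.6% to 64.8%) and 44.1% for those not called, against 49.0% over all genes tested. No higher member had a GC content of 45% or more, and GINS1 was the only lower member under 45%. Across the 54 members, Spearman's rho between GC content and log2 fold change was -0.85 (Pearson's r = -0.81), and across 16233 tested genes with exons in the annotation rho was -0.63. These genes share the same 6 libraries and are not independent, so the values are descriptions. All tested genes were also divided by GC content into 3 bins of equal size. In the low GC bin, 14 of 26 members were higher and 1 was lower, where 48.7% and 1.29% of all genes there were. The middle bin held 19 members with 10 lower and none higher, against 14.5% and 8.004% of all genes. In the high GC bin 8 of 9 members were lower, against 34.9% of all genes. In the low bin the share of higher members was thus near that of all genes, and in the middle and high bins the share of lower members stood above it. The bins were not matched for expression. Over all GC levels and both directions, genes within the members' range of mean log2 CPM were called more often than all genes (52.1% against 35.9%). The part of expression level in the contrast within bins was not tested.

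**Figure D4:**
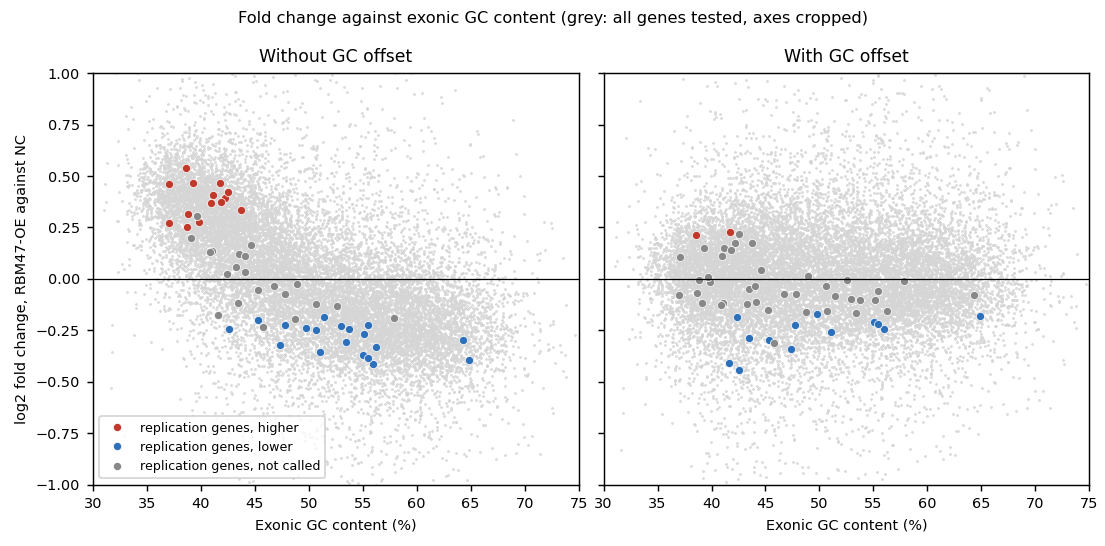
Log2 fold change against exonic GC content (%), without (left) and with (right) the GC offset. Small grey points are all tested genes, and the 54 replication genes are drawn in red (higher), blue (lower) or dark grey (not called). On the left the red points lie under 45% GC and nearly all blue points above it, and on the right 41 of the 54 points lie below 0.

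With the GC offset more members were lower than higher. RFC1 and WDHD1 were higher, and MCM2, MCM5, MCM6, ORC6, GINS1, GINS2, GINS3, POLD1, POLD2, POLE3, PCNA, RPA2 and RPA3 were lower. Of all genes in that fit, 5.99% were higher and 8.47% were lower, and among those within the members' range of expression 8.64% and 12.7%. The log2 fold change was negative for 41 members and positive for 13, with a median of -0.09, and 13 members changed sign from the fit without the offset. Spearman's rho between GC content and log2 fold change was still -0.38 over the members, against -0.04 over all genes, so the members' values were not free of a relation with GC content. The groups did not overlap for 6 members with RBM47-OE on top and for 18 with NC on top, against 15.1% and 16.9% of all genes. Both higher calls and 10 of the 13 lower calls were shared between the fits. The per-library medians over the 19 members lower without the offset were -0.19, -0.23 and -0.14 in RBM47-OE replicates 1, 2 and 3 with it. These counts too changed with 1 library left out. There were from 0 higher members (NC replicate 1 left out) up to 4 (RBM47-OE replicate 1 left out). Without NC replicates 1, 2 and 3 there were 6, 3 and 8 lower members. What part of the changes came from the libraries' GC trend was not tested.

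The mRNAs of higher and lower members also differed in features of the 3′ UTR, and so did those of all higher and all lower genes. Canonical transcripts of GENCODE 44 were used, and those with a very short 3′ UTR or coding part were left out. POLD1, POLE2 and RFC4 were not among the members that remained. The median 3′ UTR was 1317 bases long in the 14 higher members and 698.5 bases in 18 lower members. It was 2355.5 bases in all higher genes, 707 bases in all lower genes and 1362 bases over all tested genes with such a transcript. The word ATTTA, the core of AU-rich elements that RNA-binding proteins can recognise, was present in the 3′ UTR of all 14 higher members, of 7 of 18 lower members (38.9%) and of 16 of 19 not called. Over all tested genes with such a transcript the word was in 94.9% of higher and 49.4% of lower genes, and in 73.7% in all. The part of 3′ UTR features in the result was not tested.

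Without the GC offset, ORC, polymerase delta and RFC each had subunits called in both directions. With the offset no complex compared here had calls in both, but only 2 of all members were then called higher. Subunit shares in the complex's summed FPKM, which is per length and carries no GC offset, were compared over libraries. The exact two-sided permutation test cannot give a p under 0.10 here. Of 38 shares in 9 complexes, 24 had groups that did not overlap, and the smallest Benjamini-Hochberg adjusted p of the exact tests was 0.16. That value follows from the floor of 0.10 and the number of shares at it, so it does not reflect the size of the shifts. The CDC7 and DBF4 shares mirror each other. For the CPM of all genes, which is not a share, the groups did not overlap for 23.2% (RBM47-OE on top) and 23.4% (NC on top). In ORC, the ORC1 share was 36.8%, 37.5% and 37.2% for NC and 31.5%, 29.1% and 27.9% for RBM47-OE (p = 0.10, exact), while the ORC3 share was 15.2% ± 0.325 for NC and 19.5% ± 2.32 for RBM47-OE (SD, n = 3). Within MCM2-7, the MCM2 share was 16.2% ± 0.198 for NC and 14.3% ± 0.588 for RBM47-OE (SD, n = 3), and MCM6 took 9.80% ± 0.122 and 11.7% ± 1.01 (SD, n = 3). The groups did not overlap for either. MCM7 remained the largest share, at 36.9% ± 0.292 and 34.5% ± 2.04 (SD, n = 3), with overlapping groups.

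In polymerase alpha-primase, POLA2 took 28.4% ± 0.885 of the summed FPKM for NC and 21.8% ± 2.48 for RBM47-OE (SD, n = 3), and PRIM1 took 28.9% ± 0.365 and 33.7% ± 1.56 (SD, n = 3). In RFC, the RFC1 share was 9.58% ± 0.313 for NC and 13.1% ± 1.07 for RBM47-OE (SD, n = 3), and the RFC2 share was 36.5% ± 0.423 and 31.0% ± 1.45 (SD, n = 3). Each of these 4 shares was separate between the groups (exact permutation p = 0.10). In GINS only GINS4 was separate (14.1% ± 0.284 and 16.8% ± 1.78, SD, n = 3), and in polymerase delta only POLD3 (2.80% ± 0.167 and 4.46% ± 0.440, SD, n = 3). Shares within a complex sum to 100%, so a rise of 1 lowers the others. Genes of the same complex differ in GC content, and the part of that in the shifts was not tested. The part of the same-strand overlaps of PRIM1 and POLA2 in their shares was not tested either.

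**Figure D5:**
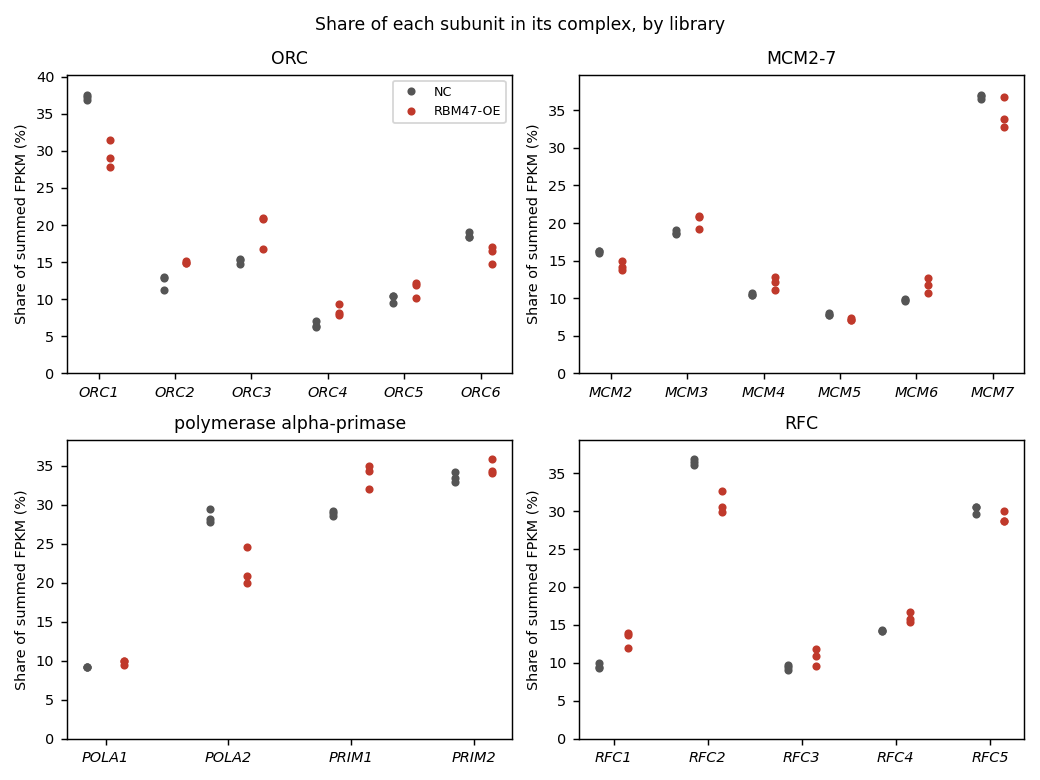
Share of each subunit in the summed FPKM of its complex (%), by library, for ORC, MCM2-7, polymerase alpha-primase and RFC. Each point is 1 library, grey for NC and red for RBM47-OE. The ORC1, MCM2, POLA2 and RFC2 points of RBM47-OE lie below those of NC, and the ORC3, MCM6, PRIM1 and RFC1 points lie above.

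Genes that work with the machinery also moved in both directions. Of 72 genes in 4 lists outside the rule, 71 were tested, 22 were higher and 23 were lower, and with the GC offset 5 were higher and 17 lower. Over all genes tested the shares were 19.1% higher and 16.9% lower, and 5.99% and 8.47% with the offset. Among genes within the members' range of mean log2 CPM they were 27.5% and 24.7%, and 8.64% and 12.7% with the offset. The counts of each list below are to be read beside these shares. Among 28 accessory factors of the replisome, 8 were higher and 9 lower. RNASEH2C, a subunit of the nuclease that removes RNA from DNA, had a CPM of 42.8, 45.3 and 42.2 for NC and 30.8, 30.8 and 28.1 for RBM47-OE. It fell in each RBM47-OE library relative to NC (log2 fold change -0.54, SE 0.082, adjusted p = 4.9e-05). CHTF18, part of an alternative clamp loader, had a CPM of 30.2, 32.4 and 31.8 for NC and 25.001, 20.5 and 20.9 for RBM47-OE, with no overlap (log2 fold change -0.51, SE 0.093, adjusted p = 0.00025). Both stayed lower with the GC offset, at -0.36 and -0.29 (adjusted p = 0.00095 and 0.0096).

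Of 11 genes of deoxynucleotide supply, 5 were higher and 3 lower. RRM1, the large subunit of ribonucleotide reductase, had a CPM of 105, 101.4 and 99.4 for NC and 127, 141 and 168 for RBM47-OE. Every RBM47-OE library was above NC (log2 fold change 0.51, SE 0.083, adjusted p = 8.4e-05), and RRM1 was higher with the GC offset too (0.33, adjusted p = 0.0019). RRM2B, the p53-inducible small subunit, had a CPM of 68.2, 67.3 and 65.4 for NC and 83.0, 92.7 and 99.2 for RBM47-OE. It rose without the offset (log2 fold change 0.45, SE 0.075, adjusted p = 0.00011) and was at 0.11 with it (adjusted p = 0.20). The small subunit of S phase, RRM2, was not called (-0.10, adjusted p = 0.32).

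Among 13 genes of the G1/S transition and the E2F pathway, 2 were higher and 4 lower. Cyclin E1, CCNE1, which drives entry into S phase, had a CPM of 33.5, 33.3 and 31.6 for NC and 21.9, 20.9 and 23.6 for RBM47-OE. The groups were far apart relative to their spread (log2 fold change -0.57, SE 0.088, adjusted p = 5.5e-05). CDC25A, the phosphatase that activates CDK2, had a CPM of 39.6, 39.4 and 37.8 for NC and 25.8, 21.3 and 32.6 for RBM47-OE, with RBM47-OE replicate 3 closest to NC (log2 fold change -0.55, SE 0.11, adjusted p = 0.00038). With the GC offset both stayed lower, at -0.45 and -0.46 (adjusted p = 0.00047 and 0.0047).

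For comparison, 19 of 20 mitotic genes were tested, of which 7 were higher and 7 lower, and NUSAP1 was under the filter. CDC20, the activator of the anaphase-promoting complex, had a CPM of 329, 321 and 298 for NC and 204, 167 and 176 for RBM47-OE. Its log2 fold change was larger in size than that of any replication gene, a difference that was not tested (log2 fold change -0.79, SE 0.078, adjusted p = 5.3e-07). PLK1, a mitotic kinase, had a CPM of 147, 155 and 149 for NC and 114, 98.4 and 93.8 for RBM47-OE (log2 fold change -0.56, SE 0.076, adjusted p = 2.7e-05). CDC20 and PLK1 were lower with the GC offset too, at -0.61 and -0.38 (adjusted p = 4.7e-06 and 0.00016). The proliferation marker MKI67 was not called in either fit (0.04 and 0.05, adjusted p = 0.73 and 0.66).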

How the data were processed

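RNA-seq of HCT116 cells was analysed in 3 NC and 3 RBM47-OE libraries, grouped by the sample labels. Per the methods, reads were trimmed and mapped to GRCh38 by HISAT2, and the authors deposited unnormalized counts of uniquely mapped reads per gene. FPKM values deposited by the authors put those reads relative to gene length and mapped fragments. The counting tool, annotation release and use of strand are not given in the sources used here.

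Counts were tested with edgeR 4.0.16 in R 4.3.3 (filterByExpr with a minimum count of 10 and a minimum total of 15, TMM, quasi-likelihood test, condition as the only term), with Benjamini-Hochberg adjustment over all 16260 genes. The SE was obtained as |log2 fold change| over the root of F. Per-library log2 CPM used a prior count of 2. The GC offset was a loess curve (span 0.3) of each library's log2 difference against exonic GC content from GENCODE 44. The scripts were tested on simulated data. Depth was 26792409 to 35477983 counts per library.

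Alternatives were RLE factors, library totals, DESeq2 1.42.0 on filtered and on all genes, no filter, a minimum of 10 counts per library, a replicate block, the GC offset with and without it, limma 3.58.1 on log2(FPKM + 1) and log2(FPKM + 0.1) where the mean FPKM reached 0.1, the study's thresholds, an adjusted p under 0.01, and each library left out. The GC offset with each library left out was added after seeing the data. The members and lists were chosen with earlier results of these data known. Named with all values were the member with the smallest p in each role, the 10 members with the smallest adjusted p, any member meeting the study's thresholds, and the 2 genes with the smallest p of each other list. ORC1, GINS1 and PCNA were given in every library after their values were seen.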

Additional observations from a re-analysis of the deposited data

How the results depend on the processing

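Of the 33 called members, 32 kept direction and call with DESeq2 on filtered genes, 31 with DESeq2 on all genes, 32 with no filter, 33 with 10 counts in every library and 30 with RLE factors. Under library totals 24 did, under either limma setting 19, and with the GC offset 12. The count of 14 higher members became 2 with the GC offset, 2 with the GC offset and the replicate block together, and 0 at the study's thresholds, and ranged from 10 to 19 with 1 library left out. The count of 19 lower members became 10 with library totals, 6 with limma on log2(FPKM + 1), 6 with limma on log2(FPKM + 0.1), 0 at the study's thresholds and 8 at an adjusted p under 0.01, and ranged from 8 (without NC replicate 2) to 22 (without RBM47-OE replicate 1). Leaving out 1 library from the fit with the GC offset gave 0 to 4 higher and 3 to 14 lower members. The 22 higher genes of the linked lists became 5 with the GC offset and 4 with the replicate block added, and the 23 lower ones 15 with both. The replication machinery median log2 fold change was -0.000834 with library totals and 0.00905 and 0.00935 with limma. The cause of these shifts was not tested.

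Log2 fold changes of 13 members changed sign with the GC offset, without and with the replicate block: MCM6 -0.19 and -0.19, MCM9 -0.13 and -0.13, MCM10 -0.11 and -0.12, GMNN -0.12 and -0.12, TIPIN -0.12 and -0.12, RFC3 -0.12 and -0.12, ORC5 -0.079 and -0.082, PRIM2 -0.069 and -0.071, CDC6 -0.048 and -0.050, CLSPN -0.036 and -0.040, POLA1 -0.015 and -0.015, DBF4 -0.00666 and -0.00725, GINS4 0.013 and 0.012. With library totals, limma on log2(FPKM + 1) and limma on log2(FPKM + 0.1), the values were GINS4 0.038, 0.040 and 0.045, MCM4 0.029, 0.034 and 0.035, RFC5 0.010, 0.020 and 0.021. With 1 library left out, uncalled members changed sign within these ranges: MCM6 -0.067 to 0.087, MCM10 -0.088 to 0.14, MCM4 -0.11 to 0.025, GINS4 -0.081 to 0.038, CLSPN -0.000447 to 0.23, TIPIN -0.00915 to 0.14.

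The deviations of same-numbered libraries of the 2 groups had correlations of -0.06, -0.01 and -0.02. Those of libraries with different numbers ran from -0.02 to 0.04. With 3 libraries a group, such values cannot show whether same-numbered libraries were handled as pairs. The replicate block gave 14 higher and 17 lower members, and 31 of 33 calls remained. The members had 244 to 22449 counts per library, and 3 libraries a group limit the precision of small changes.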
